A study of Mus musculus with 4 samples.

Results

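The mitochondrial ribosome is built from proteins that nuclear genes encode. All probes whose gene symbol on the array begins with Mrpl or Mrps followed by a number were taken, which gave 81 probes of 78 genes, out of 20690 probes of 19316 genes with 1 symbol. Of the 78 genes, 49 carry an Mrpl symbol (large subunit) and 29 an Mrps symbol (small subunit), and all 78 were detected on all 4 arrays, that is, their spots exceeded the mean of the empty control (blank) spots by over 2 SD. Gene expression was measured in E0771, a mouse breast carcinoma cell line, with 1 array for each of 4 groups: IL-26 at 30 ng/ml for 24 h, vehicle (medium alone) for 24 h, IL-26 at 30 ng/ml for 6 h, and vehicle for 6 h. IL-26 is a cytokine of the IL-10 family, and all 4 groups were cultures of the same line with no genetic change named in the labels. With 1 array per group, a difference between a pair of arrays has no replicate check, and it is not stated whether the cultures were separate experiments.

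Mitochondrial ribosomes translate the few proteins that mitochondrial DNA encodes, which are core subunits of the respiratory chain and of ATP synthase. Their RNA is made in the mitochondrion, whereas every protein subunit is imported from the cytosol. Part of the subunits descend from bacterial ribosomal proteins and the others are particular to mitochondria. The symbols do not always follow the structure: the products of Mrps18a and Mrps30 sit in the large subunit, and that of Mrps36 is now assigned to the oxoglutarate dehydrogenase complex.

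Gene spots had a median intensity of 78.0 to 84.4 on the 4 arrays, against means of 49.6 to 56.5 for blank spots. The limit of detection was low, since 32.3% to 52.1% of negative control spots also lay above it. Of the markers of the labelled cell type, Krt8 (1499 and 1747 at 24 h with IL-26 and vehicle, 1436 and 1838 at 6 h) was bright, whereas Krt18, Epcam and Cdh1 lay between 59.4 and 74.3 on every array. The mesenchymal marker Vim was between 15519 and 19168. Fn1 and the leukocyte and endothelial markers lay between 51.6 and 60.6, near the limit, and none of the 11 markers measured was called for time or for IL-26.

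The promoters of 4 members are printed because these genes had the 3 largest decreases and the largest increase with time described below. Sequences are those of RefSeq on the mouse build GRCm38.p6, read in the direction of the gene and ending at the base before its start, and capitals mark matches to the motifs that were searched. For Mrpl46 only the 41 bases between its start and that of the oppositely transcribed Mrps11 are given (chr7:78783090-78783130, minus strand). The other windows are the 250 bases before the start, at chr17:12916092-12916341 (minus strand), chr11:115403502-115403751 (plus strand) and chr3:94443086-94443335 (plus strand).
Mrpl46: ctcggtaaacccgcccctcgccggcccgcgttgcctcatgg
Mrpl18: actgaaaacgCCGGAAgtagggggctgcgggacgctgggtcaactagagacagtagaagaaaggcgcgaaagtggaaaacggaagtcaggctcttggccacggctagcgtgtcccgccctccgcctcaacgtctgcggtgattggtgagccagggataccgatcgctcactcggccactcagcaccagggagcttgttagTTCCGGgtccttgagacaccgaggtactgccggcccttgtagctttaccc
Mrpl58: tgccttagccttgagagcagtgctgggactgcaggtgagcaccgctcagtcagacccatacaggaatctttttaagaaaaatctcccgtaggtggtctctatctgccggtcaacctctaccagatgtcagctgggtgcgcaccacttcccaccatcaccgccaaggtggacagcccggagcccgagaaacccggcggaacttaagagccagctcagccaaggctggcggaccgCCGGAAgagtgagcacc
Mrpl9: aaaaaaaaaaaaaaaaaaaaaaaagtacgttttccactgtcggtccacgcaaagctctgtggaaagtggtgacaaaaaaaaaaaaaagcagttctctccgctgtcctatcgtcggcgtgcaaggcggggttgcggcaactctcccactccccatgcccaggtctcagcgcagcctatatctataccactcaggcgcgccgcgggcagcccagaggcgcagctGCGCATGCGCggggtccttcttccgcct

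The motifs searched, on both strands, were CCGGAA, the core bound by ETS factors such as GABP, and the motif of NRF1, which is the run in capitals in the Mrpl9 promoter with any base allowed at its middle pair of positions. Both factors are known for binding promoters of nuclear genes with mitochondrial products. The windows were 250 bases before to 50 bases after the start, and 69 of the 78 members had one. A gene with more than 1 listed promoter was counted once, as holding a motif if any of its promoters did. The ETS core was found for 40 of these 69 genes (58%), against 16.7% of all 27025 genes with a promoter and 23.1% of those tested. The NRF1 motif was found for 14 of 69 (20.3%), against 7% of all genes with a promoter and 11% of those tested. Among cytosolic ribosomal protein genes these shares were 57.1% and 12.2%, and among oxidative phosphorylation subunits 36.5% and 27%. Both motifs contain the letters CG in a row. The count of CG, relative to that expected from the C and G content, had a median of 0.82 in the members. It was 0.64 in the genes tested and 0.39 in all genes with a promoter, and its part in these shares was not tested. In the printed windows, Mrpl18 holds the ETS core at 240 bases (plus strand) and at 50 bases (minus strand) before its start, Mrpl58 holds it at 17 bases and Mrpl9 holds the NRF1 motif at 28 bases. Of the members with a promoter, 15 of 25 lower at 24 h (60%) and 24 of 42 not called (57.1%) had the ETS core. A match is a run of letters and was not examined for binding.

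The first comparison asked how the expression of these genes differed between 24 h and 6 h of treatment, averaged over IL-26 and vehicle. At 24 h 27 of the 78 members were lower (34.6%) and 3 were higher (3.85%) at a limma adjusted p under 0.05 over 18372 genes, and 48 did not pass the test. Among all genes tested 14.4% were called lower and 14.5% were called higher. Most members were bright: 72 of 78 were among the brighter genes, those whose mean log2 value was in the upper part of the genes tested (9186 of 18372), where 22.1% were called lower and 21% higher, and 26 of these 72 members were lower and 1 was higher. The median log2 difference of the members was -0.16, with quartiles of -0.33 and -0.00, against -0.00 for all genes tested and -0.02 for the brighter genes. The median raw intensity of the members was 607 with IL-26 and 634.6 with vehicle at 24 h, against 643 with IL-26 and 715 with vehicle at 6 h. In bulk RNA, less RNA per cell and fewer cells that hold it cannot be told apart.

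The fit leaves 1 residual degree of freedom per gene, and its standard errors (SE) come mostly from other genes of like signal. The local background read around the member spots differed between the arrays: its median was 46.3% of the spot intensity with IL-26 and 67.2% with vehicle at 24 h, against 43.8% with IL-26 and 69.7% with vehicle at 6 h. With that local background subtracted from each spot, 0 of the 78 members, and 0 of all 18372 genes, were called for time in limma, with 4 members at an unadjusted p under 0.05. The median log2 difference of the members was then -0.12, against -0.01 for all genes tested, with medians of -0.17 for the Mrps and -0.11 for the Mrpl genes. The standard errors were larger, for Mrpl46 0.30 against 0.10 without that step.

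**Figure D1:**
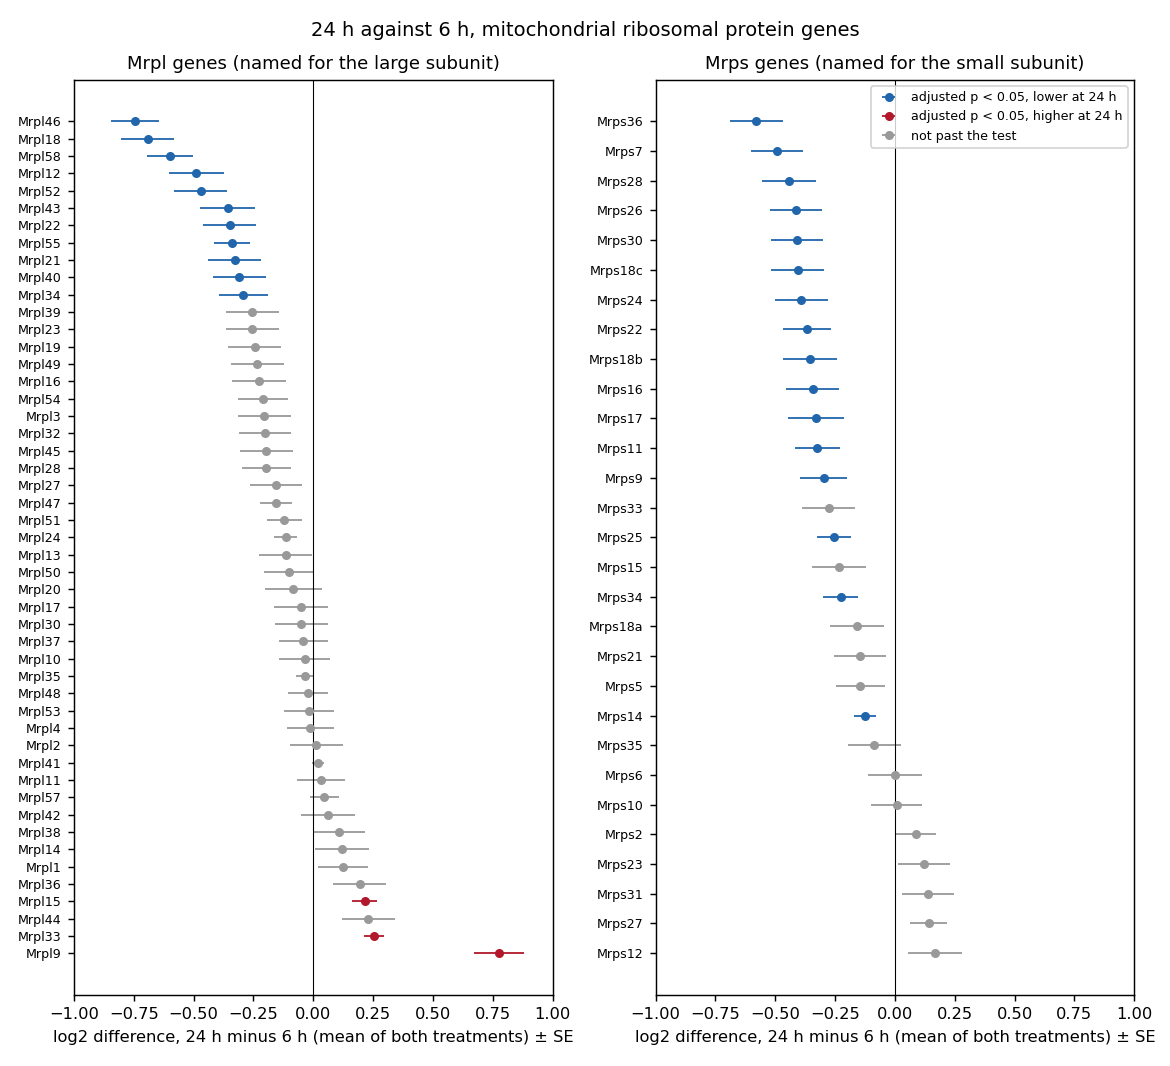
Log2 difference between 24 h and 6 h, averaged over IL-26 and vehicle, for each of the 78 genes (points) with the standard error of the limma fit over 4 arrays (bars), for the 49 Mrpl genes on the left and the 29 Mrps genes on the right. Of the Mrps genes 16 were lower and 0 higher, and of the Mrpl genes 11 were lower and 3 higher.

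The largest decreases were in genes of the large subunit. Mrpl46, a subunit particular to mitochondria, had spot intensities of 274 with IL-26 and 323 with vehicle at 24 h, against 495 with IL-26 and 521 with vehicle at 6 h. Both arrays at 24 h lay below both arrays at 6 h, and the log2 difference was -0.75 ± 0.10 (SE, 4 arrays; limma adjusted p = 9.8e-09), or 1.68-fold. Mrpl18, a subunit with a bacterial counterpart, had 633 and 660 with IL-26 and vehicle at 24 h, against 1047 and 1107 at 6 h. The groups did not overlap, and its difference was nearly equal with IL-26 (-0.69) and with vehicle (-0.69). With the local background subtracted, the difference of Mrpl18 averaged over both treatments had the opposite sign (0.07 ± 0.40, SE). Mrpl58, a peptidyl-tRNA hydrolase that was taken into the ribosome, had 242 and 250 with IL-26 and vehicle at 24 h, against 339 and 414 at 6 h. The log2 difference was -0.60 ± 0.10 (SE; limma adjusted p = 6.4e-07), with all values at 24 h below those at 6 h.

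Mrpl12, whose product also binds the mitochondrial RNA polymerase in human cells, was lower as well. Its intensities were 1361 and 1328 with IL-26 and vehicle at 24 h, against 1744 and 2281 at 6 h. The log2 difference was -0.49 ± 0.11 (SE; limma adjusted p = 0.0005), and it was -0.30 with IL-26 and -0.68 with vehicle. Mrpl52, another subunit particular to mitochondria, had 1875 and 1890 at 24 h with IL-26 and vehicle, against 2535 and 3142 at 6 h (-0.47 ± 0.11, SE). For both genes the highest value was that of vehicle at 6 h. With the local background subtracted, Mrpl52 had a difference of the opposite sign (1.36 ± 0.54, SE). The other Mrpl genes that were lower were Mrpl43, Mrpl22, Mrpl55, Mrpl21, Mrpl40 and Mrpl34, with log2 differences from -0.36 to -0.29.

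Among the genes named for the small subunit, 16 of 29 were lower at 24 h and none was higher, with a median log2 difference of -0.25. Among those named for the large subunit, 11 of 49 were lower and 3 higher, with a median of -0.12. The difference between the subunits was not tested. When members were placed by structure rather than by symbol, 14 of 26 small subunit genes and 12 of 51 large subunit genes were lower. The subunits with a bacterial counterpart (15 lower and 3 higher of 46) and those particular to mitochondria (11 lower and 0 higher of 31) had similar shares of lower genes, at 32.6% and 35.5%.

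Mrps36, the gene assigned to the oxoglutarate dehydrogenase complex, had the lowest difference among the Mrps symbols. It had intensities of 631 and 602 with IL-26 and vehicle at 24 h, against 872 and 1032 at 6 h, and a log2 difference of -0.58 ± 0.11 (SE; limma adjusted p = 2.3e-05). Mrps7, a small subunit protein with a bacterial counterpart, had 669 and 637 with IL-26 and vehicle at 24 h, against 903 and 1005 at 6 h (-0.49 ± 0.11, SE). In both genes the 24 h and 6 h arrays were apart, and the difference was larger with vehicle than with IL-26. With the local background subtracted, Mrps7 had a difference of the opposite sign (0.53 ± 0.35, SE).
Mrps28 (-0.44 ± 0.11), Mrps26 (-0.41 ± 0.11) and Mrps30 (-0.41 ± 0.11, SE each) followed. The product of Mrps30 belongs to the large subunit, and its intensities were 608 and 621 with IL-26 and vehicle at 24 h, against 888 and 786 at 6 h. Here IL-26 at 6 h was the highest array, unlike in Mrps36 and Mrps7.

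The 3 paralogs of the Mrps18 family, of which 1 is used in the large subunit, did not all pass the test. Mrps18b, with 727 and 659 at 24 h with IL-26 and vehicle, against 837 and 1006 at 6 h, had a log2 difference of -0.36 ± 0.11. Mrps18c, with 757 and 832 against 1051 and 1151 in the same order, had one of -0.41 ± 0.11 (SE each). Mrps18a, whose product is a large subunit protein, had -0.16 ± 0.11 (SE; limma adjusted p = 0.32). Whether the probes tell these paralogs apart was not examined.

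Of the 27 lower members, all 27 had a negative difference both with IL-26 and with vehicle, and the normalized values at 24 h and 6 h did not overlap in any of them. In raw intensity 26 of 27 did not overlap. Mrps14 was the exception, with 69.4 and 75.7 with IL-26 and vehicle at 24 h against 80.6 and 74.5 at 6 h, and it also had the smallest difference of the 27 (-0.13 ± 0.05, SE). The log2 differences of the 27 ran from -0.75 to -0.13, which is 1.68- to 1.09-fold. The 27 were chosen by the fit to these same arrays, which favours genes with like differences in both treatments. The shared signs and the lack of overlap are therefore not a separate check of the calls. They were not counted over all genes tested or for the other genes called. Members that were not called, such as Mrps33 and Mrpl39, also had negative differences in both treatments and normalized values that did not overlap.

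**Figure D2:**
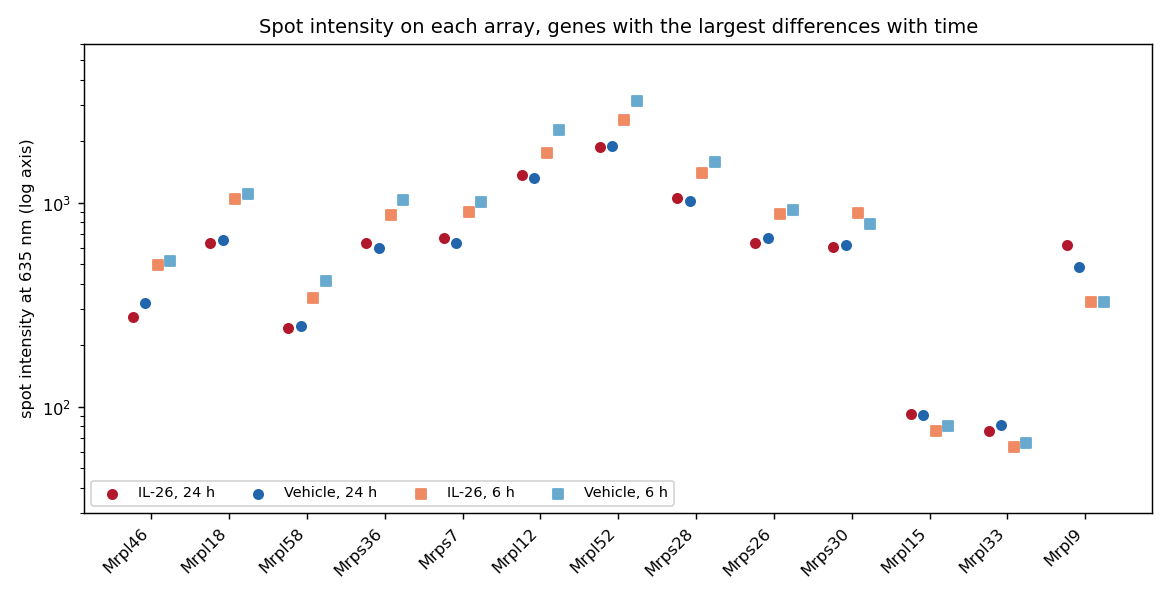
Spot intensity in the red channel (log axis) on each of the 4 arrays for the 10 genes with the largest decreases with time and the 3 genes called higher. In the 10 lower genes both 24 h arrays (circles) lie below both 6 h arrays (squares), and in the 3 higher genes they lie above.

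Only 3 members were higher at 24 h, all with Mrpl symbols and a bacterial counterpart. Mrpl9, a large subunit protein, had intensities of 617 with IL-26 and 482 with vehicle at 24 h, against 325 with IL-26 and 325 with vehicle at 6 h. Its log2 difference of 0.78 ± 0.10 (SE; limma adjusted p = 7.3e-09) was the largest of the 78 in either direction, and it was 0.94 with IL-26 and 0.61 with vehicle. Mrpl33 and Mrpl15 were dim. Mrpl33 had 76.0 and 81.1 with IL-26 and vehicle at 24 h, against 63.5 and 66.4 at 6 h (0.25 ± 0.04, SE), and Mrpl15 had 92.2 and 91.1 against 76.2 and 80.8 (0.22 ± 0.05, SE). In the values deposited by the authors the differences of Mrpl33 and Mrpl15 were 0.81 and 0.49. Neither was tested when the comparison was limited to the brighter genes, which left 1 member higher.

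Members that did not pass the test had log2 differences between -0.28 (Mrps33) and 0.23 (Mrpl44), with 31 of 48 below 0. They include Mrps12, a protein of the decoding site, at 0.17 ± 0.11, and Mrpl11, part of the site where translation factors bind, at 0.03 ± 0.10. The spot of 1 member, Mrpl1 (0.12 ± 0.11), lay beside a spot above an intensity of 10000. Mrpl36 had 0.19 ± 0.11 and Mrpl41, one of the dimmest members, 0.02 ± 0.02 (SE each). With the arrays scaled to a common median, Mrpl41 was called higher (0.07).

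For 3 members the array carried a pair of probes. Those of Mrpl47 differed: at 1 probe the log2 difference with time was 0.01 (limma adjusted p = 0.96) and at the other -0.32 (limma adjusted p = 0.00026). Those of Mrps21 also differed, with -0.26, which passed the test, and -0.04, which did not. Those of Mrpl48 had -0.02 and -0.02, but 1 of them lay near the limit of detection. Its intensities were 53.6 to 58.4, against 610 to 643 at the other probe. The genes themselves, as means of their probes, did not pass the test.

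Taken for each treatment alone, without a test, 2 members were at least 1.5-fold lower and 1 at least 1.5-fold higher at 24 h with IL-26, where 2.24% of all genes were lower and 2.87% were higher. With vehicle, 7 members were at least 1.5-fold lower and 1 was higher, where 2% of all genes were lower and 2.6% higher. All of these members were among the 72 brighter ones, and brighter genes passed 1.5-fold more often. Of the 9186 brighter genes, 402 were lower and 509 higher with IL-26, and 362 were lower and 455 higher with vehicle. Mrpl46 and Mrpl18 were lower and Mrpl9 was higher by this measure in both treatments. The median over the members was -0.13 with IL-26 and -0.19 with vehicle. Of the 78 members 48 were negative in both treatments, 13 were positive in both, and 17 differed in sign. Across the 78 genes, which share arrays and normalization, the difference with time in IL-26 correlated with that in vehicle at r = 0.63, against 0.86 across all genes tested.

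**Figure D3:**
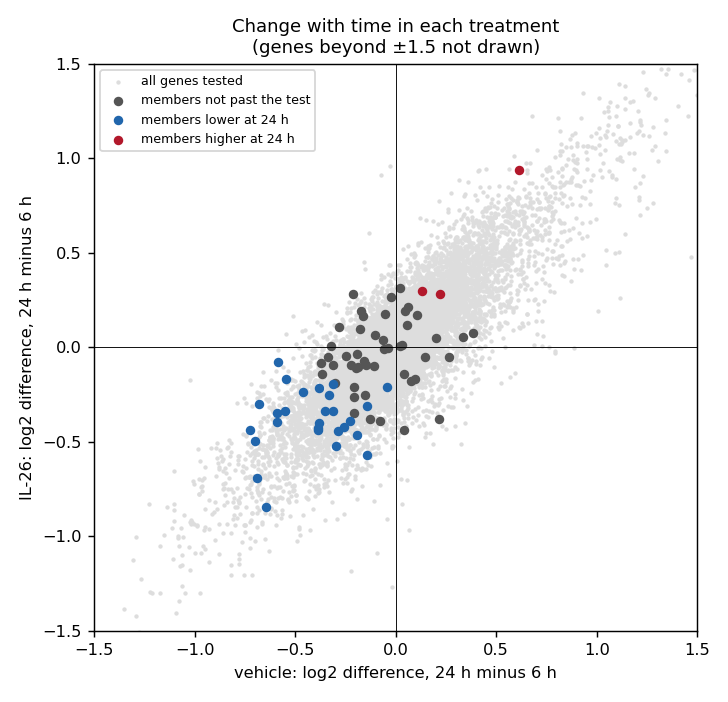
Log2 difference between 24 h and 6 h with IL-26 (vertical axis) against that with vehicle (horizontal axis), for all genes tested (light points) and for the 78 members (dark and coloured points). The 27 members called lower lie at the lower left and the 3 called higher at the upper right.

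The second comparison asked what IL-26 did to these genes. None of the 78 members was called for IL-26 averaged over both times in limma, where 0.321% of all genes tested were called lower and 0.169% higher, and 1 member had an unadjusted p under 0.05. That member was Mrpl9, with a log2 difference of 0.29 ± 0.10 (SE; limma adjusted p = 0.51). The averaged differences of the others ran down to -0.22 (Mrpl45, whose product lies at the exit of the peptide tunnel), with standard errors of 0.02 to 0.12. A p that misses the threshold does not show that IL-26 left these genes unaltered. With the local background subtracted, 4 members were called higher with IL-26 (Mrpl16, Mrpl53, Mrps23 and Mrps12, at log2 differences of 1.56 to 2.17), which without that step had -0.17 to 0.02. Among all 18372 genes tested, 253 were then called higher and 10 lower, against 31 and 59 without that step. As given above, local background made up a larger share of the spot on the vehicle arrays than on the IL-26 arrays. It was at or above the spot itself for 0 of 81 member spots with IL-26 and 7 with vehicle at 24 h, and for 0 with IL-26 and 16 with vehicle at 6 h, and its part in this was not tested.

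The lowest averaged differences after Mrpl45 were those of Mrpl20 (-0.18 ± 0.12), Mrpl16 (-0.17 ± 0.11) and Mrpl4 (-0.14 ± 0.10). The highest after Mrpl9 were those of Mrps30 (0.18 ± 0.11), Mrps33 (0.16 ± 0.11) and Mrpl11 (0.16 ± 0.10, SE each). None of these passed the test (limma adjusted p = 0.999 each).

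At each time alone, no member differed by 1.5-fold or more between IL-26 and vehicle, where 0.049% of all genes did at 24 h and 0.0816% at 6 h. At 24 h the median of the members was 0.05, with 47 higher and 30 lower in the IL-26 array. At 6 h the median was -0.02, with 35 higher and 42 lower. The sign held at both times in 21 members, of which 13 were positive and 8 negative, and 55 (70.5%) had opposite signs, against 52.6% of all genes tested and 54.3% of the brighter genes. The difference between these shares was not tested.

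At 24 h the lowest members were Mrpl20 (956 with IL-26 and 1430 with vehicle, a log2 difference of -0.48), Mrpl45 (469 and 695, -0.46) and Mrpl43 (773 and 1045, -0.35). The highest were Mrpl9 (0.45), Mrpl11 (344 with IL-26 and 283 with vehicle, 0.40) and Mrps10 (530 and 462, 0.29). These genes were picked as the extremes at 24 h, which favours smaller differences at 6 h. At 6 h their normalized log2 differences were smaller in size, and all but that of Mrpl9 (0.12) had the opposite sign. They were 0.12 for Mrpl20, 0.02 for Mrpl45, 0.08 for Mrpl43, -0.09 for Mrpl11 and -0.07 for Mrps10. In raw intensity Mrpl20 had 1311 with IL-26 and 1316 with vehicle, Mrpl45 had 645 and 693, Mrpl43 had 1197 and 1223, and Mrps10 had 473 and 542. For Mrpl20, Mrpl45 and Mrpl43 the raw value at 6 h was thus lower with IL-26, as at 24 h. Their opposite sign appeared only after normalization.
At 6 h the lowest members were Mrpl16 (960 with IL-26 and 1294 with vehicle, -0.32), Mrps17 (2016 and 2751, -0.30) and Mrpl12 (1744 and 2281, -0.24). The highest were Mrps30 (0.29), Mrps33 (2165 with IL-26 and 2021 with vehicle, 0.23) and Mrps34 (154 and 141, 0.22).

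**Figure D4:**
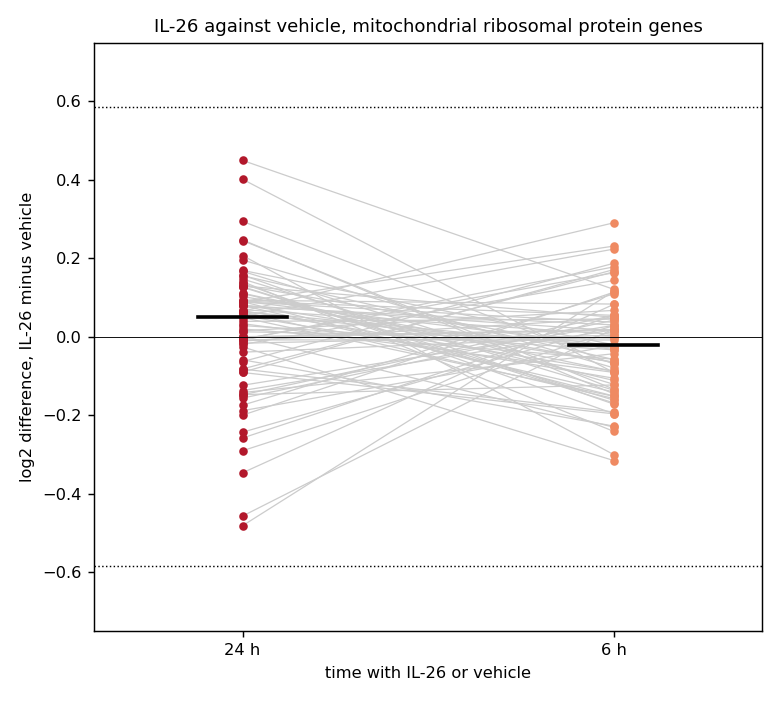
Log2 difference between IL-26 and vehicle at 24 h (left) and at 6 h (right) for the 78 genes, with a line joining each gene and a thick bar at the median. No gene reaches the dotted lines at 1.5-fold, and the medians were 0.05 at 24 h and -0.02 at 6 h.

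The spread of the members in these comparisons was 0.16 at 24 h and 0.13 at 6 h (SD over genes, log2), against 0.13 and 0.12 for the brighter genes.

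Other genes of mitochondrial translation differed with time in either direction. Of 4 further ribosomal subunits under other symbols, Ptcd3 was higher at 24 h (log2 difference 0.47) and Gadd45gip1 was lower (-0.39), whereas Dap3 (0.25) and Chchd1 (0.14) did not pass the test. Of 11 translation factors 4 were higher at 24 h, namely the elongation factor genes Tufm (0.32) and Gfm1 (0.34), the initiation factor gene Mtif2 (0.47) and Guf1 (0.18), and the release factor gene Mtrf1 was lower (-0.22). Tufm had intensities of 1196 and 1242 with IL-26 and vehicle at 24 h, against 992 and 1065 at 6 h, so that its 24 h arrays lay above both 6 h arrays.

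Of 17 factors that assemble or modify the mitochondrial ribosome, 5 were lower and 3 were higher at 24 h. The lower ones included Fastkd2, an RNA-binding protein of ribosome assembly (-0.58), and Malsu1, a factor of large subunit assembly (-0.48). Tfb1m, a methyltransferase of the small subunit rRNA, was higher (0.55). Of 16 mitochondrial aminoacyl-tRNA synthetases, which charge the tRNAs that these ribosomes use, 5 were lower (Fars2, Lars2, Mars2, Sars2 and Yars2, at -0.32 to -0.21) and 0 were higher. Lars2 had intensities of 8824 to 12718, far above the next brightest synthetase, Rars2 (521 to 623). Whether the Lars2 signal comes only from that gene was not examined. Of 11 genes for upkeep of mitochondrial DNA and RNA, 3 were higher (Pnpt1 at 0.63, Mtpap at 0.31 and Twnk at 0.30) and 0 were lower. For IL-26, none of the genes in these 5 lists was called in limma, and 1 had an unadjusted p under 0.05.

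Cytosolic ribosomal proteins and oxidative phosphorylation subunits are the groups most like the members. Of 63 cytosolic ribosomal protein genes 13 were lower at 24 h (20.6%) and 4 higher, with a median log2 difference of -0.03. Of 74 oxidative phosphorylation subunit genes 6 were lower (8.11%) and 11 higher, with a median of 0.07. The differences between these groups and the members were not tested.

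**Figure D5:**
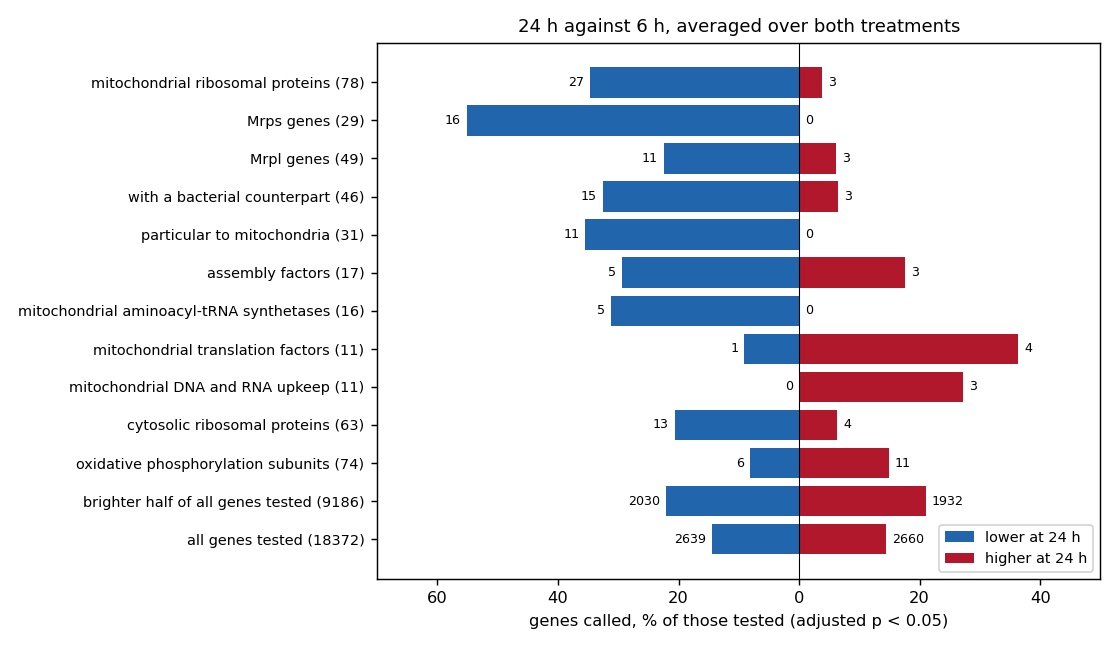
Share of the genes tested that were called lower (left of 0) or higher (right of 0) at 24 h against 6 h, for the members, their subgroups, related gene lists and all genes tested (number of genes in parentheses, number called at the end of each bar). The Mrps genes had the largest share called lower (16 of 29), and translation factors the largest share called higher (4 of 11).

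Of the 69 members with a promoter, 26 (37.7%) had an oppositely transcribed neighbour whose start lay within 1000 bases, against 15.1% of the genes tested. The share was 16.3% for cytosolic ribosomal proteins and 27% for oxidative phosphorylation subunits. Mrpl46 and Mrps11 are such a pair of members, with starts 42 bases apart, and both were lower at 24 h (log2 differences of -0.75 and -0.33). Mrps11, a small subunit protein, had 243 and 287 with IL-26 and vehicle at 24 h, against 308 and 364 at 6 h. The members formed 25 such pairs, and in 1 pair the neighbour was not tested. Both genes were lower in 3 pairs, neither was called in 7, only the member was called (lower) in 5, only the neighbour in 8 (7 higher and 1 lower), and 1 pair was called in opposite directions. The other pairs with both genes lower were Mrpl40 (-0.31) with Hira (-0.32) and Mrps26 (-0.41) with 4930473A02Rik (-0.09). In the pair of opposite directions, Mrpl43 was lower (-0.36), whereas Twnk, the mitochondrial DNA helicase whose start is 116 bases away, was higher (0.30). Mrps12 (0.17) did not pass the test, whereas Sars2, 147 bases away, was lower (-0.21). Mrpl51 (-0.12) and Mrpl30 (-0.05) did not pass the test, whereas their neighbours Ncapd2 (1.24) and Mitd1 (0.99) were higher. Probe positions relative to these paired starts were not examined.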

How the data were processed

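Total RNA of E0771 cells was amplified, labelled with Cy5 and hybridised to 3D-Gene mouse chips, with 1 array per group. For each of 27456 spots the authors deposited the median spot intensity and the intensity of its surroundings, and the file headers name no subtraction or normalization. The authors also deposited processed intensities of these arrays, used as an alternative, whose scaling is not given in the sources used here. Groups were taken from the labels.

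Each array carried 23474 gene spots, 384 blank spots and 96 negative control spots. Of 23473 probes, 20690 had 1 symbol and 2783 had none, and 8 symbols were brought up to date. The background was modelled with normexp on the blank spots (offset 50), and log2 values were quantile normalized (limma 3.58.1, R 4.3.3). A gene is the mean of its probes. A probe counted as detected when it exceeded the mean of the blank spots by more than 2 SD, and a gene was tested when this held on 1 array or more (18372 genes). The offset draws differences of dim genes towards 0, and having only 4 arrays limits the precision.

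Time and treatment were fitted in an additive limma model. Variances were moderated by eBayes with an intensity trend, and p-values were adjusted by Benjamini-Hochberg over all genes tested. There was 1 residual degree of freedom and a median prior of 63.8. Comparisons of a pair of arrays have no test, and a difference of 1.5-fold was counted. The residual of this model is how far the difference with time disagrees between IL-26 and vehicle. An effect of IL-26 that changes with time therefore counts as noise. The p-values set a gene against this spread, taken mostly from other genes, and not against a spread between replicate cultures. That spread may be technical. The fit was tested on simulated data with independent noise for each gene and array, which cannot check effects shared by a whole array. The members, gene lists, tests and rule for named genes were chosen with earlier results of these data known. The rule named 12 genes in every case, the 10 highest and 10 lowest members called for time, the 4 highest and 4 lowest for IL-26 averaged over times, and the 3 highest and 3 lowest at each time. Other genes were named after their values were seen. Alternatives were other normalizations, background corrections, offsets, variance models, filters, units and the deposited values.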

Additional observations from a re-analysis of the deposited data

Results flagged for a closer look

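For 3 genes the difference went clearly one way in one pair of arrays and the opposite way in the other pair, by more than 0.2 on the log2 scale on both sides. In each case the difference between the pairs was not tested, since each group has 1 array. Mrpl20 had a log2 difference between 24 h and 6 h of -0.38 with IL-26 and 0.22 with vehicle. Mrpl11 had one of 0.28 with IL-26 and -0.21 with vehicle. For Mrps17 the difference between IL-26 and vehicle was 0.21 at 24 h and -0.30 at 6 h. In Mrps17 the vehicle array at 6 h was the brightest of the 4, at 2751.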

How the results depend on the processing

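Subtracting the local background of each spot had the largest effect of the alternatives. It left 0 members lower and 0 higher with time. For IL-26 it called 4 members, all higher (20 at an unadjusted p under 0.05), against 0 without it. Over all 18372 genes tested it called 0 for time, and 253 higher and 10 lower for IL-26 (31 and 59 without it). The median log2 difference of the members with time was then -0.12, against -0.16, and the standard errors were larger. Under the other alternatives 25 to 32 members were called for time (30 as reported) and 0 for IL-26, and 13 to 17 Mrps genes were lower. Limited to the brighter genes, 1 member was higher with time. The median log2 difference with time was -0.21 with an offset of 16 and -0.11 with one of 200. For IL-26 the median was -0.053 with median scaling, against 0.0019. With median scaling 3865 genes were higher and 2443 lower with time over all genes tested, against 2660 and 2639 with quantile normalization. Without the intensity trend of the variances 1760 genes were higher and 1689 lower. Limited to the brighter genes, 2124 of 9186 were higher and 2243 lower. The member counts under these alternatives thus stand beside different shares of all genes. At 2-fold, 0 members differed with time with IL-26 and 0 with vehicle. In the values deposited by the authors, 7 members differed by 1.5-fold with time with IL-26, where 20.1% of all genes did. With the local background subtracted, the sign turned for 8 of 28 differences of named genes, which became 0.073 (Mrpl18), 0.53 (Mrps7), 1.36 (Mrpl52), -0.045 (Mrps12), -0.093 (Mrpl11) and 1.13 (Mrps18a) with time, and 2.17 (Mrpl16) and -0.46 (Mrps30) for IL-26. Of the others, 12 lost the threshold and 8 kept their side of it. The cause was not tested. In the deposited values all 28 kept their direction and side of the threshold. The additive fit already compares 24 h with 6 h within each treatment, and no further replicate block could be added because each group has 1 array.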
